A study of Danio rerio with 8 samples.

Results

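Lysosomal protease and hydrolase genes were followed across 4 fractions sorted from fractured zebrafish scales: osteoblasts (OB), osteoclast precursors (pOC), mature osteoclasts (mOC) and OB-derived extracellular vesicles (EV). The set was taken by gene symbol, but it was chosen with earlier results of these data known. It holds the cathepsins other than *ctsk*, legumain, a fixed list of acid hydrolases, and the lysosomal membrane and cholesterol-export genes named *lamp*, *npc1* and *npc2*. It came to 53 of the 32057 Ensembl genes of the tables, namely 15 cysteine cathepsins, 2 other cathepsins, 2 other proteases, 13 glycosidases, 6 sulfatases, 8 hydrolases of lipids, phosphates and thioesters (with saposin) and 7 membrane or cholesterol-export genes. Of these, 46 had at least 1 RPM (counted reads per 1000000 of the library) in at least 2 libraries and entered the tests.

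The lysosome is the acidic compartment in which cells break down what they take up and what they recycle from within. Its proteases, glycosidases, sulfatases and lipases are made as precursors, carried from the Golgi and activated at low pH. Macrophages use them to digest engulfed cells, and osteoclasts release part of them onto bone through secretory lysosomes, with cathepsin K (*ctsk*) as the main collagenase. The roles given below are those known for the mammalian enzymes.

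All fractions came from adult *trap:GFP*; *osterix:mCherry* double-transgenic fish, labelled wild type in genotype, on the day after scale fracture. An upstream region of *trap* (*acp5a*) drove a membrane-bound GFP and an upstream region of medaka *osterix* (*sp7*) drove a Lifeact-mCherry. The reporters thus mark promoter activity, but a cell can also carry a colour that it took up. From transplants of *trap:GFP* kidney marrow into *osterix:mCherry* fish, the study attributed mCherry in GFP+ cells to uptake of OB vesicles. A fraction can therefore hold other cells that carry the colour. OB were GFP- mCherry+ cells with high Hoechst staining, pOC were GFPlow mCherry+ Hoechst-high cells, mOC were GFPhigh Hoechst-high cells and EV were mCherry+ particles of low Hoechst staining. The study described phagocyte-like cells, and OB with GFP+ fragments, within the GFPlow gate, and apoptotic bodies as well as microvesicles within the EV gate. From morphology and expression, it proposed that the GFPlow fraction held mainly monocytes or macrophages. That fraction is called pOC here after its sample label. The labels give 2 samples per fraction, which the study calls biological replicates of 1 experiment. Whether they came from separate fish is not stated, so the p-values measure the spread between these samples.

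The 2 OB tables held identical values under the same column name, and OB was therefore counted as 1 library, with no measured spread. Each limma p-value, those against OB included, thus rests on a spread pooled over pOC, mOC and EV. The 2 EV libraries were less alike than the others, with a Pearson r of 0.932 on the log2 scale, against 0.979 in pOC and 0.979 in mOC. Depth recovered from the RPM steps ran from 11814593 to 24435512 counted reads, so that 3 reads correspond to 0.123 to 0.254 RPM. Between 14125 and 19515 genes were above 0 in a library, fewest in EV. The OB library held the osteoblast factor *sp7* at 5.42 RPM, against 2.09 RPM or less elsewhere, and summed osteoblast markers at 39498 RPM, yet *bglap* (osteocalcin) was at 0 in every library and the same markers still summed to 8440.0 to 15992 RPM in pOC and EV. The collagen genes *col1a1* and *col1a2*, at 13254 and 17068 RPM, made up a large part of the OB sum. Not all of these markers were highest in OB. Among those that were not, *phex* was at 387 RPM in OB but 3149 and 2139 RPM in mOC, and *alpl* at 27.96 RPM in OB but 37.15 RPM in EV replicate 2. Summed osteoclast markers were at 19416 and 19715 RPM in mOC and at 3361 to 6656 RPM elsewhere, and *calcr* (the calcitonin receptor) was at 0 throughout. EV replicate 2 stood apart by melanophore genes, with *pmela* at 509 RPM against 31.3 in EV replicate 1 and at most 15.5 in the cells. In bulk RNA of this kind, fewer cells of a type and less RNA per cell cannot be told apart.

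As a share of all reads, the 53 genes were lowest in OB and highest in pOC and EV. Their summed level was 7332 RPM (0.733% of reads) in OB, 34069 and 26885 RPM in pOC, 16137 and 15673 RPM in mOC, and 30446 and 34337 RPM in EV. The groups did not overlap between the pOC and EV libraries on one side and the OB and mOC libraries on the other. Legumain alone made up 25.1% and 26.3% of that sum in pOC and 29.9% and 31.2% in EV, but 3.71% and 2.99% in mOC. Without *lgmn* the sums were 6349 RPM in OB, 25519.9 and 19817 in pOC, 15538 and 15205 in mOC, and 21345 and 23612 in EV, again lowest in OB, next in mOC and highest in pOC and EV.

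**Figure D1:**
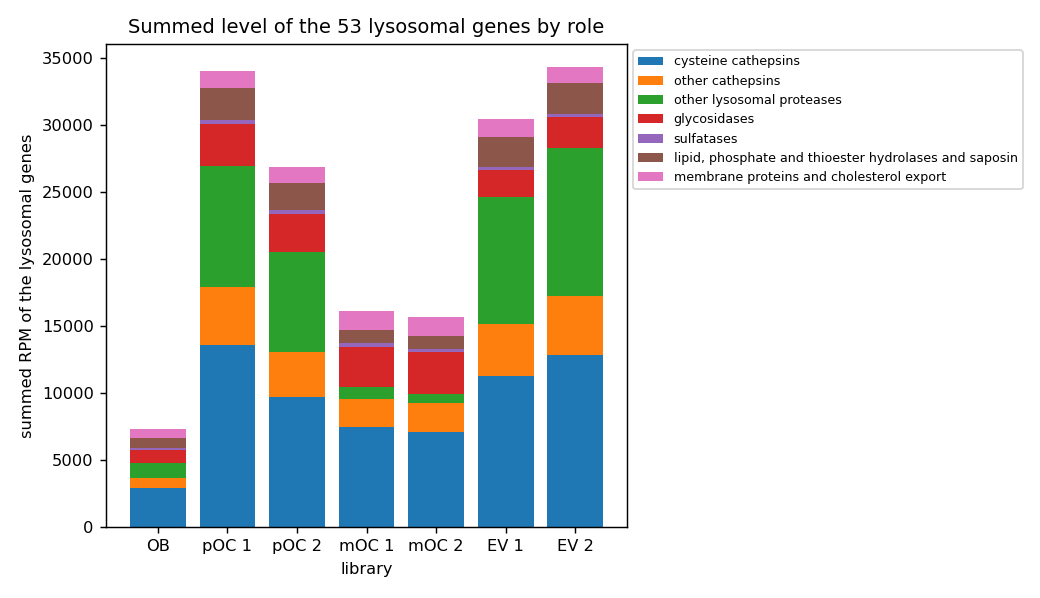
Summed RPM of the 53 lysosomal genes in each of the 7 distinct libraries, stacked by the role of the gene product. The OB bar reaches 7332 RPM, the mOC bars 15673 and 16137, and the pOC and EV bars 26885 to 34337, and the green block of legumain and *tpp1* is thin in OB and mOC.

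Across the 4 fractions, 24 of the 46 tested genes differed (limma F test, adjusted p under 0.05 and a largest difference between fractions beyond 1 on the log2(RPM + 1) scale), or 52.2%, against 11.1% of all 14006 genes tested. Of the 46 tested genes, 31 had their lowest mean in OB, 7 in EV, 6 in mOC and 2 in pOC. The highest mean lay in pOC for 17 of these, in EV for 12, in mOC for 11 and in OB for 6. The share of all genes with such means was not counted. In 19 of the 46 (41.3%) every pOC and EV library lay above every OB and mOC library, a pattern found in 8.16% of all genes tested and given here as a count with no test. The OB library was below the other 6 for 25 genes (54.3%), against 13.7% of all genes. It was above the other 6 for *idua*, *ids* and *lamp1b* (6.52%), against 21.7% of all genes. Both mOC libraries were above the other 5 for 5 genes (10.9%), near the share of 10.8% of all genes. The count from the F test fell when 1 pOC or mOC library was left out and rose when 1 EV library was left out. The count over all genes tested moved the same way. In the pairs of fractions below, it also moved with the count of lysosomal genes in these fits, wherever the latter moved. These changes thus do not single out the lysosomal genes.

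**Figure D2:**
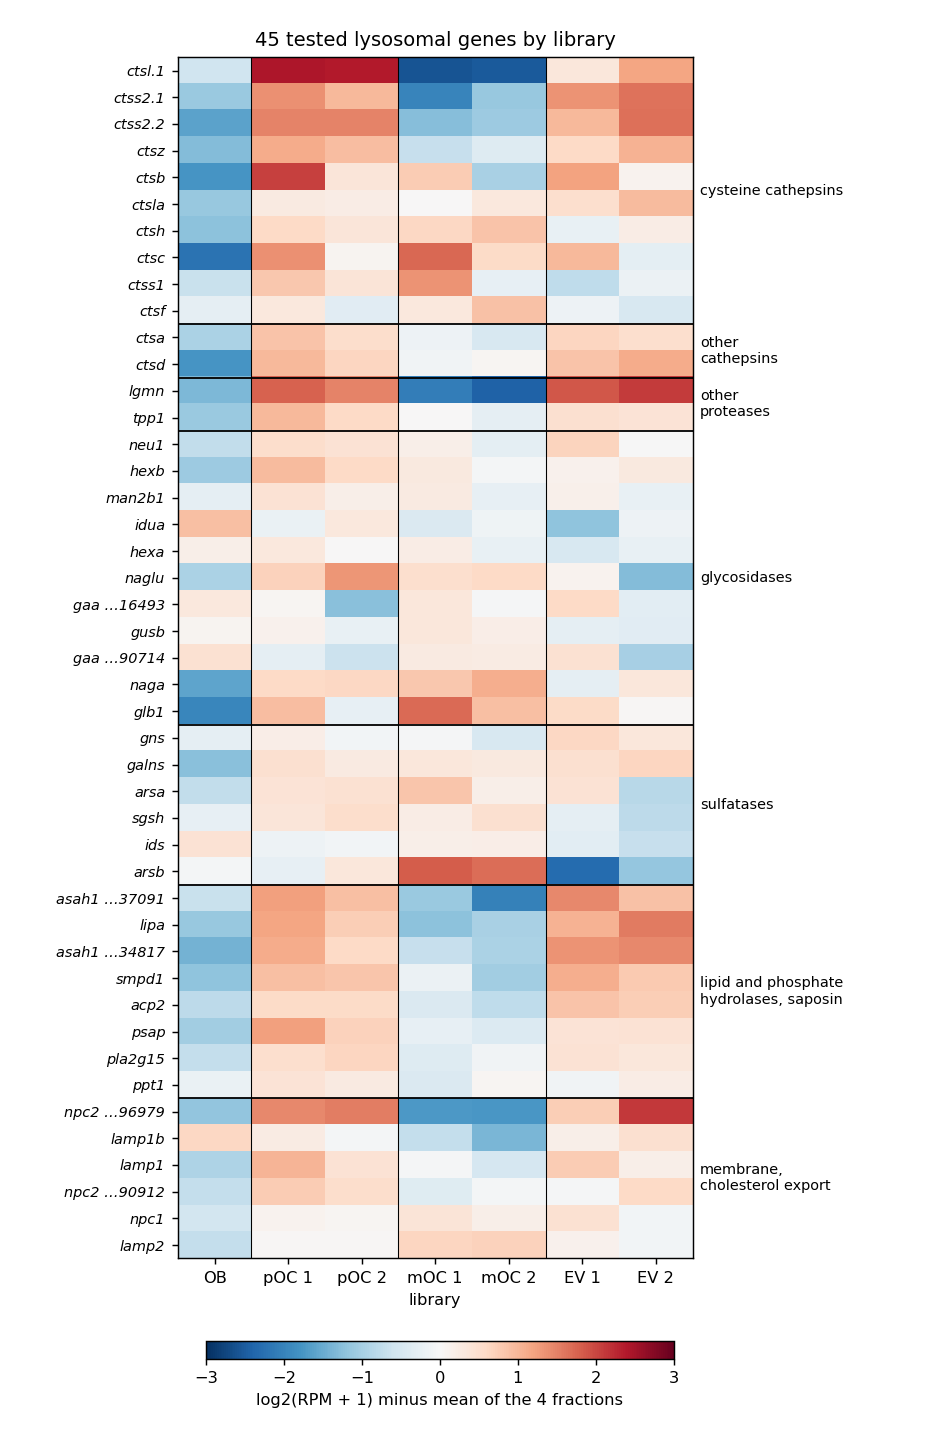
Of the 46 tested lysosomal genes, 45 are drawn (rows, by role) in the 7 distinct libraries (columns), coloured by log2(RPM + 1) minus the mean of the 4 fraction means. Most proteases at the top and most lipid hydrolases lower down are red in pOC and EV and blue in OB. Genes also blue in mOC include *lgmn*, *ctsl.1*, *ctss2.1*, *ctss2.2*, *lipa*, both *asah1* gene IDs and *npc2* (ENSDARG00000096979), while *arsb* and *glb1* are reddest in mOC.

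Legumain, the asparaginyl endopeptidase that also cleaves cathepsins into their mature chains, took the most reads of the set in every pOC and EV library and had the smallest F-test p of the set (adjusted p = 0.000701). *lgmn* (ENSDARG00000039150) was at 984 RPM in OB, 8549 and 7069 in pOC, 599 and 468 in mOC and 9101 and 10725 in EV. The pOC and EV libraries were far above the others, and both mOC libraries were below OB. It was higher in pOC than in OB (log2 fold change 2.98, SE 0.22, adjusted p = 0.00739, where each first value in such brackets is a log2 fold change on the log2(RPM + 1) scale) and higher in EV than in mOC (4.22, SE 0.18, adjusted p = 0.00023), and it fell from pOC to mOC (-3.87, SE 0.18, adjusted p = 0.000518). Its difference between mOC and OB did not pass (-0.89, SE 0.22, adjusted p = 0.057). The other non-cathepsin protease, *tpp1*, a tripeptidyl peptidase whose loss causes a neuronal ceroid lipofuscinosis, was at 131 RPM in OB, 555 and 429 in pOC, 284 and 234 in mOC and 395 and 374 in EV. It was higher than in OB in pOC (1.89, SE 0.25, adjusted p = 0.0248) and in EV (1.55, SE 0.25, adjusted p = 0.0244).

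Among the cysteine cathepsins, 10 of 15 were tested. They showed 3 kinds of profile. The first kind was that of legumain. *ctss2.1* and *ctss2.2* encode cathepsin S, an endopeptidase that in mammalian antigen-presenting cells trims the invariant chain of MHC class II. *ctss2.1* was at 152 RPM in OB, 847 and 649.6 in pOC, 82.9 and 150.2 in mOC and 838 and 1014 in EV. *ctss2.2* was at 35.6 RPM in OB, 312 and 310.4 in pOC, 45.2 and 51.2 in mOC and 218 and 351 in EV. For both genes the pOC and EV libraries lay above every OB and mOC library, and mOC was lower than pOC (*ctss2.1* -2.72, SE 0.30, adjusted p = 0.00607, and *ctss2.2* -2.67, SE 0.27, adjusted p = 0.00395). In the GRCz12tu annotation both genes lie side by side on chromosome 16 next to *ctsk*, which went the other way, at 8408 and 9433 RPM in mOC against 2949 and 3522 in pOC (log2 fold change 1.47, SE 0.17, adjusted p = 0.00656). How reads that fit more than 1 of these related genes were counted is not given in the sources used here.

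The carboxypeptidase gene *ctsz* was at 516 RPM in OB, 2767 and 2420.0 in pOC, 784 and 966 in mOC and 1926 and 2628 in EV. It was higher in pOC than in OB (2.33, SE 0.25, adjusted p = 0.021) and lower in mOC than in pOC (-1.57, SE 0.20, adjusted p = 0.00923). *ctsl.1*, a cathepsin L gene, had the largest drop of the set between pOC and mOC. It was at 8.50 RPM in OB, 76.9 and 74.3 in pOC, 1.39 and 1.52 in mOC and 17.3 and 31.9 in EV, and mOC was lower than pOC by a log2 fold change of -4.96, SE 0.40, adjusted p = 0.0019. The EV libraries lay between pOC and OB for this gene.

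In the second kind OB was the lowest library and mOC was not below pOC past the threshold. *ctsla*, a further cathepsin L gene, was at 1706 RPM in OB, 4543 and 4395 in pOC, 3762 and 4643 in mOC and 5346 and 7247 in EV. It was higher in mOC (1.29, SE 0.22, adjusted p = 0.0167), in pOC (1.39, SE 0.22, adjusted p = 0.0415) and in EV (1.87, SE 0.22, adjusted p = 0.0126) than in OB, while mOC and pOC did not differ past the threshold (-0.10, SE 0.18, adjusted p = 0.872). The aminopeptidase gene *ctsh* was at 86.7 RPM in OB, 311 and 263 in pOC, 315 and 368 in mOC and 174 and 239.6 in EV. Both mOC libraries were the highest, and *ctsh* was higher than in OB in mOC (1.96, SE 0.28, adjusted p = 0.00826) and pOC (1.71, SE 0.28, adjusted p = 0.0415), whereas EV missed the threshold (1.23, SE 0.28, adjusted p = 0.0558).

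The third kind was set by a wide gap between replicates. *ctsb*, the endopeptidase and dipeptidase cathepsin B, was at 289 RPM in OB, 4099 and 1269 in pOC, 1685 and 504 in mOC and 2272 and 1067 in EV. *ctsc*, the dipeptidyl peptidase that activates granule serine proteases in mammalian leukocytes, was at 46.8 RPM in OB, 572 and 235 in pOC, 729 and 330.3 in mOC and 432 and 182 in EV. For both genes OB was the lowest library and replicate 1 lay above replicate 2 in pOC, mOC and EV alike. Without a replicate block, *ctsb* passed in no pair of fractions, with a log2 fold change of 2.98, SE 0.88, adjusted p = 0.198 between pOC and OB, and *ctsc* passed only in mOC against OB (3.36, SE 0.72, adjusted p = 0.0344). The replicate number as a block changed the fold changes against OB themselves. With it, *ctsb* passed in pOC (2.22, adjusted p = 0.0228) and EV (1.67, adjusted p = 0.0265) against OB and in mOC against pOC (-1.31, adjusted p = 0.0171). *ctsc* then also passed in pOC (2.33, adjusted p = 0.0161, against 2.94 without the block) and EV (1.95, adjusted p = 0.0135, against 2.56) against OB. *ctsf* (35.2 to 92.0 RPM) and *ctss1* (0.69 to 6.26 RPM) did not pass the F test (adjusted p = 0.29 and 0.453).

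The remaining cysteine cathepsins were at or near 0. *ctsbb* reached 1.02 RPM in mOC replicate 2 and *ctso* 0.53 RPM in pOC replicate 1, and each was at 0 in 4 libraries. *ctsll*, *ctslb* and *ctslb.4* never passed 3 reads in a library.

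The other cathepsins belong to different enzyme classes. *ctsd*, the aspartic protease of lysosomes, was at 504 RPM in OB, 3371 and 2662 in pOC, 1595 and 1786 in mOC and 3075 and 3692 in EV. Every library of pOC, mOC and EV was more than 3 times the OB level, and the difference from OB passed in mOC (1.74, SE 0.21, adjusted p = 0.00533), pOC (2.57, SE 0.21, adjusted p = 0.0108) and EV (2.74, SE 0.21, adjusted p = 0.0091). The serine carboxypeptidase gene *ctsa*, whose product also protects β-galactosidase and neuraminidase, was at 258 RPM in OB, 904 and 722 in pOC, 452 and 356 in mOC and 787 and 709 in EV. It was higher than in OB in pOC (1.65, SE 0.24, adjusted p = 0.0333) and EV (1.53, SE 0.24, adjusted p = 0.0233) and lower in mOC than in pOC (-1.01, SE 0.20, adjusted p = 0.0393).

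**Figure D3:**
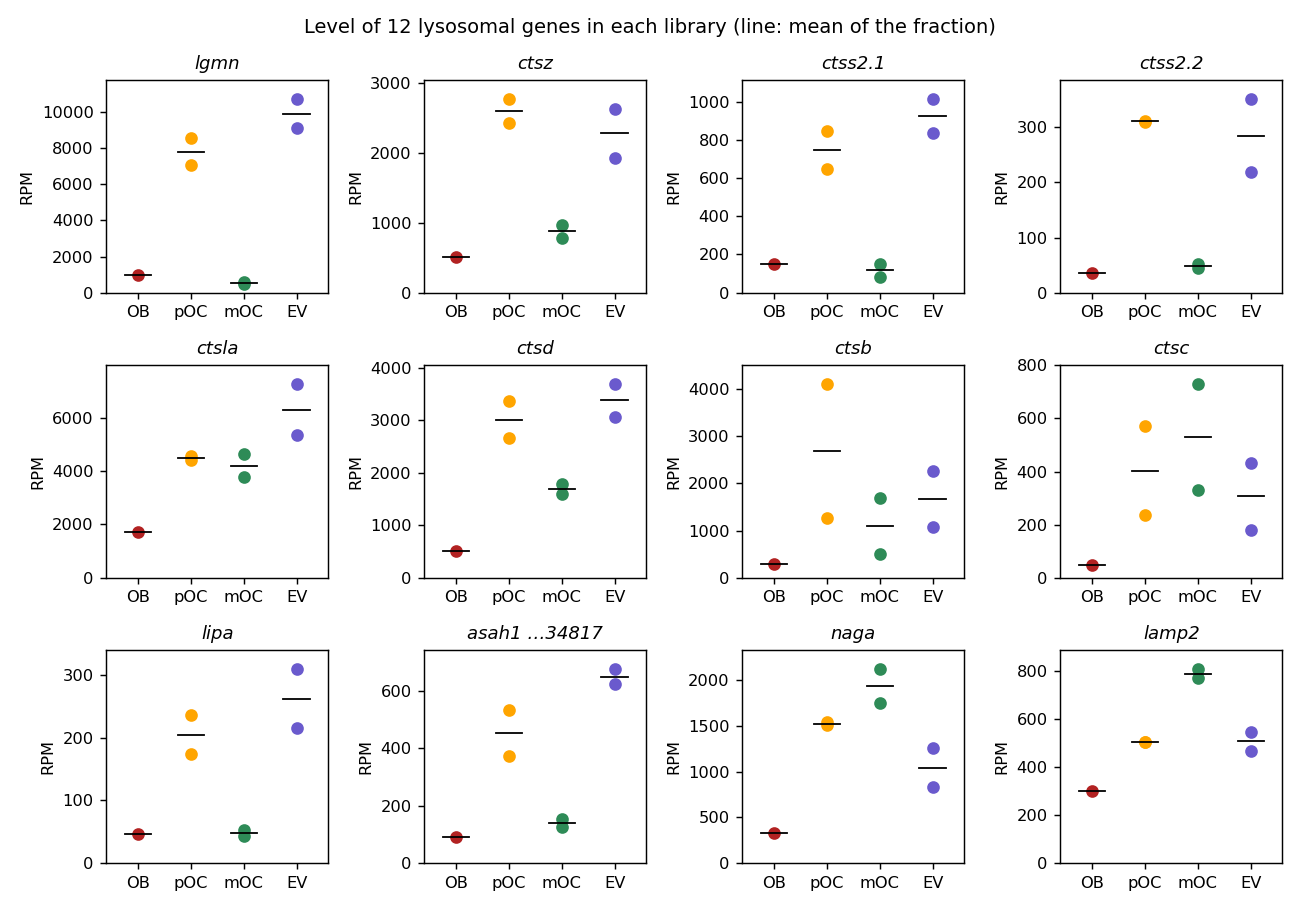
RPM of 12 lysosomal genes in each library (points) with the mean of each fraction (lines), on axes that start at 0 and differ between panels. In the panels of *lgmn*, *ctsz*, *ctss2.1*, *ctss2.2*, *lipa* and *asah1* the pOC and EV points lie above all OB and mOC points, in *naga* and *lamp2* the mOC points are the highest, and in *ctsb* and *ctsc* the 2 points of each fraction lie far apart.

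Of the glycosidases, which trim sugar chains from glycoproteins and glycolipids, 12 of 13 were tested and 3 differed across the fractions. Over all genes tested the share was 11.1%. *naga*, the α-N-acetylgalactosaminidase gene, took the most reads of them, at 329.7 RPM in OB, 1508 and 1542 in pOC, 1752 and 2119 in mOC and 827 and 1255 in EV. The mOC libraries were the highest and OB the lowest, and *naga* was higher than in OB in mOC (2.54, SE 0.27, adjusted p = 0.00333), pOC (2.21, SE 0.27, adjusted p = 0.0244) and EV (1.62, SE 0.27, adjusted p = 0.0271). *hexb*, the β subunit of hexosaminidase, was at 183 RPM in OB, 761 and 591 in pOC, 477 and 377 in mOC and 427 and 481 in EV. It was likewise higher than in OB in pOC (1.87, SE 0.26, adjusted p = 0.0283), mOC (1.21, SE 0.26, adjusted p = 0.0327) and EV (1.30, SE 0.26, adjusted p = 0.0369). *hexa*, the partner subunit in hexosaminidase A, stayed between 6.22 and 11.5 RPM in all libraries and did not pass the F test (adjusted p = 0.761).

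The β-galactosidase gene *glb1* was at 9.17 RPM in OB, 73.2 and 32.1 in pOC, 126 and 72.4 in mOC and 57.8 and 39.1 in EV. It passed in mOC against OB (3.25, SE 0.57, adjusted p = 0.0178), and the OB library was the lowest of the 7. 2 well-expressed glycosidases did not pass in any pair. The α-mannosidase gene *man2b1* was at 319 RPM in OB, 519 and 439 in pOC, 469 and 324 in mOC and 433 and 330.5 in EV, and the sialidase gene *neu1* at 57.0 RPM in OB, 138 and 131 in pOC, 109 and 77.8 in mOC and 152 and 94.8 in EV. For *man2b1* all mOC and EV libraries lay between the OB library and the higher pOC library.

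The glycosidase genes *gusb*, *gaa* (both gene IDs), *idua* and *naglu* lay between 0 and 52.5 RPM and did not pass either. *gla*, the α-galactosidase A gene, was not tested. It was at 0.77 and 0.76 RPM in mOC, at 0.04 and 0 in pOC and at 0 in OB and EV, where 3 reads would be 0.147 to 0.201 RPM.

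The sulfatases remove sulfate groups from glycosaminoglycans and sulfatides, and 2 of 6 differed across the fractions, against 11.1% of all genes tested. *galns*, which acts on keratan sulfate and chondroitin sulfate, was at 38.2 RPM in OB, 128 and 110.3 in pOC, 116 and 112 in mOC and 129 and 145 in EV. OB was the lowest library, and the gene was higher than in OB in mOC (1.55, SE 0.26, adjusted p = 0.0142), pOC (1.61, SE 0.26, adjusted p = 0.0406) and EV (1.81, SE 0.26, adjusted p = 0.0174). *arsb*, which acts on dermatan sulfate and chondroitin sulfate, was at 13.7 RPM in OB, 11.9 and 18.1 in pOC, 52.6 and 47.8 in mOC and 2.06 and 5.79 in EV. Both mOC libraries were above all others and both EV libraries below, and *arsb* was the only one of the 46 tested genes called lower in EV than in mOC (-3.49, SE 0.48, adjusted p = 0.00609). *gns*, *sgsh*, *arsa* and *ids* lay between 6.59 and 92.6 RPM and did not pass the F test.

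Most hydrolases of lipids, phosphates and thioesters had the profile of legumain. Of the 8 genes, all tested, 5 were lower in mOC than in pOC and 4 were higher in pOC and 6 in EV than in OB, whereas none passed between mOC and OB. Of all genes tested, 3.66% were lower in mOC than in pOC, and 1.28% were higher in pOC and 2.79% in EV than in OB. In mOC against OB, 3.14% of all genes were higher and 4.74% lower. *asah1* (ENSDARG00000034817), an acid ceramidase gene, was at 91.8 RPM in OB, 533 and 374 in pOC, 152 and 127 in mOC and 626 and 676 in EV. It was higher in EV than in OB (2.81, SE 0.28, adjusted p = 0.0091) and lower in mOC than in pOC (-1.68, SE 0.23, adjusted p = 0.0113). The other *asah1* gene ID (ENSDARG00000037091) was at 9.10 RPM in OB, 36.3 and 29.0 in pOC, 6.41 and 2.88 in mOC and 42.6 and 28.1 in EV, and it too was lower in mOC than in pOC (-2.64, SE 0.44, adjusted p = 0.0222).

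*lipa*, the acid lipase that splits cholesteryl esters and triglycerides, was at 46.4 RPM in OB, 236 and 173 in pOC, 43.5 and 52.4 in mOC and 215 and 309 in EV. The mOC libraries lay on either side of the OB level, and *lipa* was higher in EV than in mOC (2.41, SE 0.27, adjusted p = 0.00326). *smpd1*, the acid sphingomyelinase gene, was at 29.03 RPM in OB, 129 and 121 in pOC, 59.6 and 32.6 in mOC and 147 and 119 in EV. It passed in EV against OB (2.15, SE 0.39, adjusted p = 0.0311) and EV against mOC (1.56, SE 0.32, adjusted p = 0.0246) but not in pOC against OB (2.07, SE 0.39, adjusted p = 0.0659).

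*psap*, the precursor of the saposins that present lipids to these enzymes, was at 129 RPM in OB, 629 and 432 in pOC, 224 and 200.1 in mOC and 357 and 362 in EV. It was higher in pOC than in OB (2.01, SE 0.27, adjusted p = 0.0281) and lower in mOC than in pOC (-1.29, SE 0.22, adjusted p = 0.0239). *pla2g15*, a lysosomal phospholipase, was at 245 RPM in OB, 578 and 632 in pOC, 309.7 and 380.2 in mOC and 550.5 and 518 in EV. Its pOC and EV libraries were above the rest, and both fractions were higher than OB (1.30, SE 0.22, adjusted p = 0.0451 for pOC and 1.12, SE 0.22, adjusted p = 0.0361 for EV).

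*acp2*, the lysosomal acid phosphatase and a gene distinct from the *acp5* of the reporter, was at 59.1 RPM in OB, 154 and 153 in pOC, 75.0 and 60.4 in mOC and 186 and 171 in EV. It was higher in EV than in OB (1.58, SE 0.26, adjusted p = 0.0259) and lower in mOC than in pOC (-1.18, SE 0.21, adjusted p = 0.0287). *ppt1*, the palmitoyl-protein thioesterase, did not pass in any pair, at 73.2 RPM in OB, 113 and 102 in pOC, 62.1 and 87.9 in mOC and 78.4 and 98.8 in EV.

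The membrane and cholesterol-export genes were mixed. *lamp2*, a major glycoprotein of the lysosomal membrane, was at 300.3 RPM in OB, 504 and 505 in pOC, 771 and 807 in mOC and 546 and 468 in EV. Both mOC libraries were the highest, and mOC was higher than OB (1.39, SE 0.20, adjusted p = 0.00829). *lamp1b* ran the other way, at 65.1 RPM in OB, 49.97 and 40.6 in pOC, 25.3 and 15.7 in mOC and 47.97 and 58.9 in EV, and was higher in EV than in mOC (1.37, SE 0.33, adjusted p = 0.0381). *lamp1* lay between 4.01 and 18.1 RPM and did not pass, and *lamp3* was at 0 in every library.

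*npc1* and *npc2* encode the membrane and the soluble partner of cholesterol export from lysosomes. *npc1* was at 284 RPM in OB, 447 and 434 in pOC, 546 and 472 in mOC and 572 and 394 in EV and passed in no pair. *npc2* (ENSDARG00000090912) was at 74.3 RPM in OB, 206 and 176 in pOC, 94.7 and 117 in mOC and 118 and 185 in EV and also passed in no pair, although its pOC and EV libraries lay above the rest. The second *npc2* gene ID (ENSDARG00000096979) was at 9.83 RPM in OB, 66.6 and 70.8 in pOC, 6.49 and 6.35 in mOC and 40.5 and 106 in EV. It was lower in mOC than in pOC (-3.23, SE 0.46, adjusted p = 0.0132) and higher in EV than in mOC (3.17, SE 0.46, adjusted p = 0.00732). The 2 *npc2* genes are neighbours on chromosome 17 of the GRCz12tu annotation. How alike their sequences are was not checked, so the split of reads between them is uncertain here, as it is for the paired *asah1* and *gaa* gene IDs.

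By pair of fractions, the share of lysosomal genes called above OB was larger than that of all genes in mOC, pOC and EV. Since the 3 comparisons with OB share its single library, their counts are not independent of each other. In mOC against OB, 9 of 46 genes were higher (19.6%) and 0 lower, against 3.14% of all genes higher and 4.74% lower, with a median log2 fold change of 0.62 for the 46 genes and -0.15 for all genes. The 9 were *naga*, *ctsd*, *ctsh*, *lamp2*, *galns*, *ctsla*, *glb1*, *hexb* and *ctsc*. The count was 2 without pOC replicate 1, pOC replicate 2 or mOC replicate 1 and 0 without mOC replicate 2, and edgeR's quasi-likelihood test on reads recovered from the RPM called 0 (18 at an unadjusted p under 0.05) where DESeq2 called 11.

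In pOC against OB, 17 of 46 genes were higher (37.0%) and 0 lower, against 1.28% of all genes higher and 0.114% lower, with a median log2 fold change of 1.54 against -0.03 for all genes. By role these were 6 of 10 tested cysteine cathepsins, *ctsd* and *ctsa*, *lgmn* and *tpp1*, 2 of 12 glycosidases, 1 of 6 sulfatases, 4 of 8 lipid and phosphate hydrolases and 0 of 6 membrane or cholesterol-export genes. Without either pOC or either mOC library nothing was called in this pair, among these genes or over all genes tested. Without an EV library both counts rose. The count of lysosomal genes was 11 with a pseudocount of 0.1 RPM and 5 with no filter on low values.

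In EV against OB, 18 of 46 genes were higher (39.1%) and 0 lower, against 2.79% of all genes higher and 2.26% lower, with a median log2 fold change of 1.28 against -0.18 for all genes. The largest differences were those of *lgmn* (3.33), *ctss2.2* (2.93), *asah1* (ENSDARG00000034817, 2.81) and *ctsd* (2.74). Without either pOC or either mOC library nothing was called, among these genes or over all genes tested. The same held in a fit of the EV and OB libraries alone and with edgeR. With edgeR, 26 of the 46 were at an unadjusted p under 0.05, and DESeq2 called 22. The limma count rose without either EV library, and not only without replicate 2, the library with the melanophore genes. The count over all genes tested rose in both cases too.

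In mOC against pOC, 0 of 46 genes were higher and 12 lower (26.1%), against 3.66% of all genes lower and 0.757% higher, with a median log2 fold change of -0.54 against -0.15 for all genes. The 12 were *lgmn*, *ctsl.1*, *ctss2.1*, *ctss2.2*, *ctsz*, *ctsa*, both *asah1* gene IDs, *lipa*, *psap*, *acp2* and 1 *npc2* gene ID. None of the 12 tested glycosidases and none of the 6 sulfatases were among them, which is near the share of 3.66% of all genes. The count was 0 and 1 without pOC replicate 1 and 2, 3 without either mOC library and 7 with no filter on low values.

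In EV against mOC, 12 of 46 genes were higher (26.1%) and 1, *arsb*, was lower (2.17%), against 6.58% and 5.09% of all genes. The 12 held 4 cysteine cathepsins, *lgmn*, 5 lipid and phosphate hydrolases, 1 *npc2* gene ID and *lamp1b*. The count of 13 became 7 without either pOC library and 3 and 4 without mOC replicate 1 and 2, and edgeR called 5 where DESeq2 called 14. *lgmn*, *ctss2.1* and *asah1* (ENSDARG00000034817) were still called in each of the 6 fits that left out 1 library.

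In EV against pOC, 0 of 46 genes were called with limma (9 at an unadjusted p under 0.05), against 0.0357% of all genes, and the median log2 fold change was -0.21 against -0.16 for all genes. *ctsl.1* had the largest difference of the cathepsins (-1.64, SE 0.40, adjusted p = 0.13). The call rate over all genes in this pair was so low that the absence of calls does not show that the fractions were alike.

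**Figure D4:**
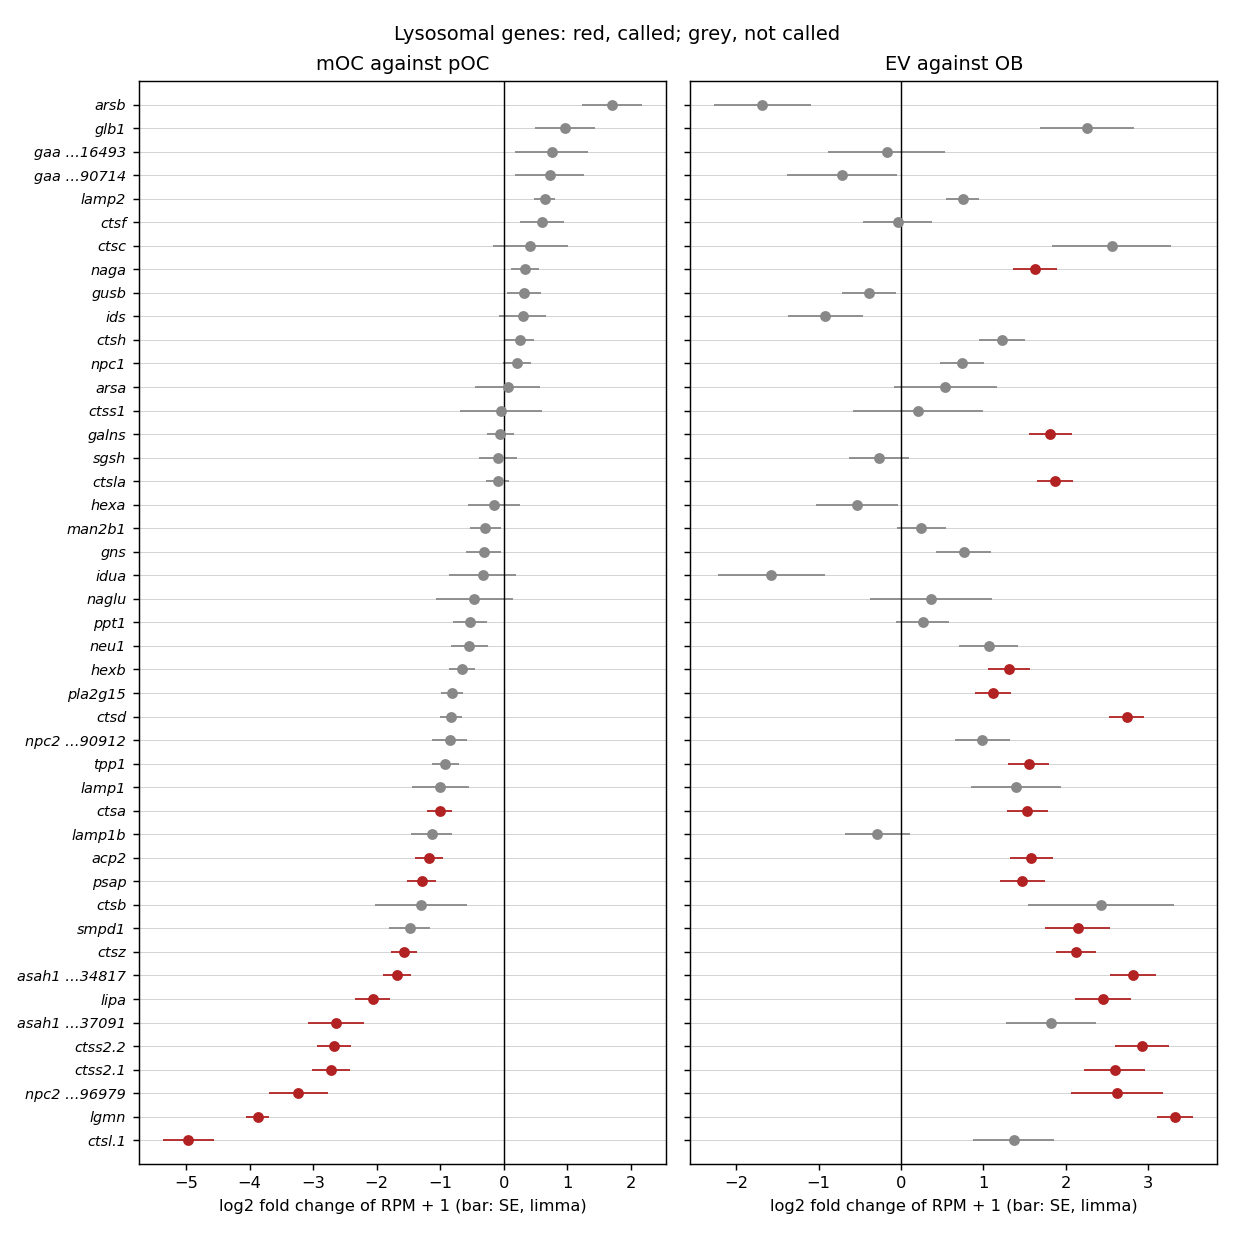
Log2 fold change of RPM + 1 of 45 of the 46 tested lysosomal genes in mOC against pOC (left) and EV against OB (right), with the SE from limma as bars and called genes in red. The panels share no library, but their SE and calls come from 1 fit with a spread pooled over pOC, mOC and EV. On the left the 12 called genes run from -1.01 (*ctsa*) to -4.96 (*ctsl.1*), and on the right the 18 called genes run from 1.12 (*pla2g15*) to 3.33 (*lgmn*).

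Other genes of the lysosome were read from 6 further lists, whose counts were set beside the shares of all 14006 genes. These were 3.14% higher in mOC, 1.28% in pOC and 2.79% in EV than in OB, 0.757% higher and 3.66% lower in mOC than in pOC, and 6.58% higher and 5.09% lower in EV than in mOC. Of the 30 tested genes for other lysosomal enzymes and cofactors, 8 were higher in pOC and 7 in EV than in OB, 5 were higher in mOC than in OB, and 3 were lower and 1 higher in mOC than in pOC. *grna*, a progranulin gene whose product reaches lysosomes, was at 463 RPM in OB, 3179.8 and 2054 in pOC, 680.4 and 456 in mOC and 2791 and 2819 in EV. As with *lgmn*, mOC was lower than pOC (-2.19, SE 0.26, adjusted p = 0.0078), and so it was for 1 gene ID (ENSDARG00000035890) of the α-fucosidase gene *fuca1* (-2.08, SE 0.27, adjusted p = 0.0103). The other *fuca1* gene ID (ENSDARG00000035879) was not called in this pair. The gene higher in mOC was *acp5*, whose promoter marks the GFP gate (3.11, SE 0.24, adjusted p = 0.00182).

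Of the 23 tested lysosomal membrane and transport genes, 7 were higher in EV, 5 in mOC and 3 in pOC than in OB. Between mOC and pOC, *slc37a2*, a sugar-phosphate transporter, was higher in mOC (1.24, SE 0.22, adjusted p = 0.026), while the nucleoside transporter *slc29a3* (-3.02, SE 0.39, adjusted p = 0.009) and the cysteine importer *mfsd12* (-1.36, SE 0.20, adjusted p = 0.0144) were lower. *slc37a2* was at 219 RPM in OB, 1321 and 944 in pOC, 2984 and 2317 in mOC and 635 and 722 in EV. Its mOC libraries did not overlap with any other.

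Of the 10 tested genes for lysosomal transcription and calcium, 3 were higher in mOC, 3 in pOC and 4 in EV than in OB. The calcium channel gene *mcoln3* was at 2.07 RPM in OB, 23.9 and 24.6 in pOC, 372 and 287 in mOC and 9.95 and 11.3 in EV, and higher in mOC than in pOC (3.70, SE 0.29, adjusted p = 0.0019). *tfec*, a transcription factor of the MiT/TFE family that acts on lysosomal genes, was at 7.69 RPM in OB, 56.1 and 63.05 in pOC, 3.78 and 1.61 in mOC and 175 and 171 in EV, and lower in mOC than in pOC (-4.10, SE 0.36, adjusted p = 0.0027). *gpnmb*, a glycoprotein of lysosomes and melanosomes, was also lower in mOC than in pOC (-5.08, SE 0.68, adjusted p = 0.0111). The mean of the channel gene was highest in mOC, and those of the other 2 were highest in EV. *tfeb*, a further transcription factor gene of this list, did not share the drop of *tfec*. It was at 18.3 RPM in OB, 78.6 and 123 in pOC, 95.2 and 80.5 in mOC and 149 and 156 in EV. It was not called in mOC against pOC (-0.167, SE 0.275, adjusted p = 0.851) and was higher in mOC than in OB (2.195, SE 0.337, adjusted p = 0.0107).

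Of the 21 tested genes for enzyme delivery, 2 were higher than in OB in each of the other fractions. They were 1 gene ID of *rab7a* (ENSDARG00000021287), the GTPase of late endosomes, and 1 of *sort1* (ENSDARG00000056252), a sorting receptor (log2 fold changes in mOC 1.22, SE 0.27, adjusted p = 0.0389, and 1.89, SE 0.41, adjusted p = 0.0348). Another *rab7a* gene ID (ENSDARG00000087243) was not called, at 60.3 RPM in OB, 41.3 and 45.35 in pOC, 61.8 and 54.7 in mOC and 47.3 and 58.9 in EV. The other *sort1* gene ID (ENSDARG00000029402), at 0.78 to 7.53 RPM, was not called against OB either. Of the 10 tested cathepsin inhibitors, the cystatin gene *cst14b.1* was higher than in OB in mOC, pOC and EV (2.08, SE 0.29, adjusted p = 0.0309 for pOC) and no other passed. Against OB, 0 of the 20 tested genes of mTORC1 and autophagy at the lysosome passed in pOC or EV and 1 in mOC, near the shares of all genes. In EV against mOC 2 were higher, among them the kinase gene *ulk1a* (2.22, SE 0.38, adjusted p = 0.0129), and 3 lower, among them *becn1* (-1.71, SE 0.33, adjusted p = 0.0185).

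Macrophage markers moved partly with the lysosomal genes. Of 26 macrophage marker gene IDs, 20 were tested, and 6 were higher in pOC and 7 in EV than in OB, 4 were higher and 1 lower in mOC than in OB, 7 were lower in mOC than in pOC, and in EV against mOC 5 were higher and 2, *csf1ra* and *lcp1*, lower (log2 fold changes -1.01 and -1.34). Of all genes tested, 1.28% were higher in pOC and 2.79% in EV than in OB. In mOC against OB 3.14% were higher and 4.74% lower, and 3.66% were lower in mOC than in pOC. In EV against mOC 6.58% were higher and 5.09% lower. The summed level of the macrophage markers was 959.6 RPM in OB, 4246 and 3553 in pOC, 4027 and 3556 in mOC and 3143 and 3350.3 in EV. Of the 26, 3 (1 *mpeg1* and 2 *mfap4* gene IDs) were at 0 throughout. The scavenger receptor gene *marco* was at 27.2 RPM in OB, 251 and 209.7 in pOC, 21.01 and 20.3 in mOC and 104 and 252 in EV, and *havcr1*, a phosphatidylserine receptor gene, at 7.63 RPM in OB, 86.2 and 67.9 in pOC, 5.02 and 2.12 in mOC and 89.5 and 136 in EV. In both, the pOC and EV libraries were several times the OB and mOC level, as for *lgmn*. The perforin-like gene *mpeg1* (ENSDARG00000043093) went against this, with its highest level in OB (167 RPM, against 55.5 and 117 in pOC, 19.2 and 13.97 in mOC and 38.5 and 36.3 in EV). Another *mpeg1* gene ID (ENSDARG00000055290) did not go against it. That gene was at 1.94 RPM in OB, 17.4 and 15.9 in pOC, 1.47 and 1.18 in mOC and 6.17 and 5.89 in EV. It was lower in mOC than in pOC (log2 fold change -2.93, SE 0.43, adjusted p = 0.0148). *spi1*, *csf1ra*, *lcp1* and *cd68* were called neither higher nor lower in mOC than in pOC. Summed pigment cell markers were at 38.3 RPM in OB, 891 and 997 in pOC, 1449 and 1260.2 in mOC and 581 and 1668 in EV, and erythrocyte, lymphocyte and neutrophil markers each summed to at most 174 RPM in any library. Endothelial markers summed to 13.3 to 107 RPM, keratinocyte markers to 776 to 1759.96 RPM, and dermal fibroblast markers to 4982 RPM in OB, 1335 to 1693 RPM in pOC and EV and 189.8 to 268 RPM in mOC. The part of these cell types in the lysosomal profiles was not tested.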

How the data were processed

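RNA of sorted cells and vesicles was amplified by Quartz-Seq, a PCR method primed on poly-A tails that carries no molecular identifiers, and per the labels and the study's methods the authors aligned reads with HISAT2 2.1.0 (genome GRCz11) and then made the deposited RPM values (counted reads per 1000000 of the library) in Subread 1.6.4. For the annotation release, strand setting and treatment of reads that fit several genes, nothing is stated in the sources used here. RPM are not per length, so levels were compared between libraries and not between genes.

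The groups follow the sample labels. Both OB tables were identical and entered as 1 library, so the fits held 7 libraries in place of 8 and OB had no replicate. Symbols came from a gene-name table that matched 28988 of 32057 gene IDs (*asah1a* and *asah1b* as *asah1*). The genes and lists were chosen with earlier results of these data known. Values of 1 gene of the set are not reported here, although the counts and sums include it. Every other gene of the set could be named, those with a fraction mean of at least 100 RPM with all values. Of the rest up to 3 called genes per pair and direction, and from each further list up to 3 called genes of smallest F-test p, were described. *lamp1b*, *hexa* and *gla*, the macrophage genes beside them, and *tfeb* were singled out after their values were seen.

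limma 3.58.1 (trend and robust settings, R 4.3.3) was fitted to log2(RPM + 1) for the 14006 genes that reached 1 RPM in 2 or more libraries. The model held a mean per fraction (4), leaving 3 residual degrees of freedom, to which the prior added 4.05 (median). Calls needed an adjusted p (Benjamini-Hochberg, over all genes tested) under 0.05 and a log2 fold change beyond 1, and each adjusted p in the text is from limma unless another tool is named. Fold changes on this scale understate those of low genes. Depth was recovered from the RPM steps (at least 99.94% of values whole within 0.005 RPM), and a floor of 3 reads covers counting error only. Count tests used the recovered reads of OB, mOC and EV (5 libraries) in edgeR 4.0.16 and in DESeq2 1.42.0. On simulated data with 14006 genes, the fit called 76% of genes changed by 2.5 on the log2 scale in mOC against pOC and 69% in EV against OB, and 43% and 19% of those changed by 1.5. The simulation gave every fraction the same spread, whereas the real EV libraries were less alike than those of pOC and mOC. Alternatives were other pseudocounts, filters and scalings, a replicate block, fits of only a pair of fractions, the ANOVA rule of the study's methods and each library left out. Figures were drawn with matplotlib 3.10.9 in Python 3.11.15.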

Additional observations from a re-analysis of the deposited data

How the results depend on the processing

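Every one of the 69 calls of a lysosomal gene in a pair of fractions kept its direction in all 1115 values from the alternatives, and 347 of these were no longer past the threshold. For part of the values the direction was fixed in advance. The fold change is the same by construction with other filters, with both OB tables kept and in fits of only a pair of fractions. It is also the same where the library left out lies outside the pair. In these settings only the call could change. Leaving out an EV library lost 0 of the 69 calls. Leaving out pOC replicate 1 or 2 lost 60 and 59, and mOC replicate 1 or 2 lost 61 and 62. The cause was not tested. Over the 6 fits without 1 library, the number of genes differing across the 4 fractions ranged from 1 to 31, and the number called from 0 to 12 in mOC against OB, 0 to 25 in pOC against OB, 0 to 26 in EV against OB, 0 to 15 in mOC against pOC, 0 to 2 in EV against pOC and 3 to 17 in EV against mOC. Where these fits left pOC or mOC with 1 library, its spread was taken from the other fractions. Wherever the count of lysosomal genes moved in these fits, the count over all genes tested moved the same way.

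With no filter on low values, 5 genes were called in pOC against OB in place of 17 and 7 in mOC against pOC in place of 12, and a pseudocount of 0.1 RPM gave 11 in pOC against OB. Keeping both identical OB tables as 2 libraries gave 28 in pOC against OB, 28 in EV against OB in place of 18 and 1 in EV against pOC in place of 0. Over all genes tested these counts rose as well, from 195 to 1354, from 707 to 2889 and from 5 to 706. A fit of only the EV and OB libraries gave 0, as it did over all genes. edgeR gave 0 in mOC against OB in place of 9, 0 in EV against OB and 5 in EV against mOC in place of 13, and DESeq2 gave 11, 22 and 14. Over all genes, edgeR called 237, 0 and 296 in these pairs and DESeq2 1278, 1043 and 1815, against 1104, 707 and 1635 with limma. These count tests were not run for pOC.

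The labels tie neither of the 2 replicate numbers to a fish or day, so they were not taken as pairs. The differences between replicate 1 and 2 correlated at r = 0.172 between pOC and mOC and at 0.07 between each of these and EV over 14006 genes, and at 0.278 (pOC and mOC), 0.102 (pOC and EV) and 0.15 (mOC and EV) over the 6303 genes with a mean of at least 10 RPM. With a replicate block the counts were 26 across the fractions, 9, 16 and 20 in mOC, pOC and EV against OB, 14 in mOC against pOC, 0 in EV against pOC and 13 in EV against mOC. The block lost 4 of the 69 calls (*ctsl.1*, *lipa* and *galns* in pOC and *hexb* in EV against OB) and added *ctsb* and *ctsc* (pOC and EV against OB), *glb1* (EV against OB), and *ctsb* and *smpd1* (mOC against pOC). The ANOVA rule of the methods gave 23 genes across the fractions, against 19.4% of all genes. TMM scaling moved the median of all genes from -0.15 to 0.002 in mOC against OB and quantile normalization from -0.18 to 0.055 in EV against OB, and the median of the 46 genes was 0.80 and 1.26 there.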

Other observations

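*ctsb* and *ctsc* were offset between replicates in the same direction in the 3 fractions with 2 libraries. *ctsb* in replicate 1 was 3.23 times replicate 2 in pOC, 3.34 times in mOC and 2.13 times in EV, and *ctsc* was 2.44, 2.21 and 2.38 times replicate 2. Of the 46 tested lysosomal genes, these 2 (4.35%) were more than 2-fold higher or lower in replicate 1 in all 3 fractions on the log2(RPM + 1) scale, against 0.743% of all 14006 genes (67 higher and 37 lower in replicate 1). These genes were picked out after their values were seen. *glb1* had a smaller offset of the same direction, at 2.28, 1.74 and 1.48 times.

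Gene IDs of the set that share a symbol were not all called in the same pairs. The 2 *asah1* gene IDs both fell from pOC to mOC, by log2 fold changes of -1.68 and -2.64. Of the *npc2* gene IDs, 1 fell by 3.23 on the log2 scale and the other was at -0.85 (SE 0.27) without passing. For both, every pOC and EV library lay above every OB and mOC library. The 2 *gaa* gene IDs lay at 3.08 to 13.8 RPM, with neither past the threshold in any pair.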
